A study of Homo sapiens with 12 samples.

Results

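Of the 12 RNA-seq libraries of the series, 9 were placed in an order of 3 steps by the amount of KDM1A transcript: 3 libraries of LNCaP cells given an empty vector, 3 given LSD1 and 3 given LSD1+8a. The 3 SRRM4 libraries were not used. All 9 came from LNCaP clone FGC, an androgen-responsive prostate cancer line first grown from a lymph node metastasis, and all cells were transiently transfected with a lipid reagent in serum-containing medium, which was changed after 6 h. Polyadenylated RNA was sequenced. The question was which transcripts stepped up or down at both steps, which were called at the last step alone and which turned back, among 13001 listed genes. Because KDM1A set the order, it was left out of every count, and 13000 genes were counted.

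LSD1 removes methyl groups from lysines of histone H3 and works within the CoREST repressor complex. The LSD1+8a isoform carries microexon 8a, which is normally included in neurons through the splicing factor SRRM4. Interferon-stimulated genes encode the antiviral state of a cell: RNA sensors such as RIG-I start the signal, transcription factors such as IRF9 act on it in the nucleus, and effectors such as the OAS enzymes and IFIT proteins act on viral RNA.

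KDM1A stood at 94.0, 95.2 and 93.7 CPM (read counts scaled to a common, TMM-normalised library size) in empty-vector replicates 1, 2 and 3. It stood at 514, 586 and 518 CPM in the LSD1 libraries and at 2608, 1983 and 2211 CPM in the LSD1+8a libraries. The 3 groups did not overlap, and 20.5% of the whole CPM rise, or 54.9% of the log2 rise, had been reached at LSD1. These values chose the order and were not tested. The isoform and the amount of KDM1A changed together at the last step, so the 2 cannot be told apart, and a count per gene holds plasmid and cellular transcripts with and without the microexon alike.

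Each gene was given a linear trend over scores 0, 1 and 2, a first step (LSD1 against empty vector), a last step (LSD1+8a against LSD1) and the difference between these steps, all from 1 edgeR quasi-likelihood model. A gene was called where its p, adjusted by Benjamini-Hochberg across all genes, lay under 0.05. With equal spacing the trend is the change from empty vector to LSD1+8a divided by the 2 steps and gives the LSD1 libraries a weight of 0, so the place of the middle group was read from the steps. The steps share the 3 LSD1 libraries, and the trend shares its end groups with them. Nothing in the labels ties the 3 libraries of a group to separate cultures, so p-values reflect spread among libraries that may be technical. In bulk RNA a rise in a few cells and a small rise in every cell cannot be told apart.

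Totals ran from 11.66 to 13.57 M counts per library, and the biological coefficient of variation was 3.11%. Luminal prostate markers such as HOXB13, KRT8 and KLK3 were all present (16 of 16), with summed levels of 10480 to 10999 CPM over the 9 libraries. The leukocyte markers PTPRC, CD3E and CD14, the fibroblast marker DCN and the endothelial marker PECAM1 were not among the listed genes. Markers that were listed included COL1A1 (fibroblast, mean 23.1 CPM), VWF (endothelial, 23.7 CPM), CD68 (leukocyte, 3.83 CPM) and ITGA6 (basal epithelial, 56.0 CPM). Of the other-cell markers that were listed, namely 2 of 9 fibroblast, 1 of 9 leukocyte, 1 of 6 endothelial, 4 of 7 basal epithelial and 1 of 6 embryonic kidney genes, edgeR, DESeq2 and limma-voom each called 0 in the trend or either step. At an unadjusted p under 0.05, 1 basal marker passed and 0 of the others.

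Of 80 measured genes from 7 interferon lists, 27 rose along the order, 3 at the first step and 23 at the last, and the steps differed by their own test for 1 of them, IFIT3. The trend was called higher for 37 genes (0.285% of genes) and lower for 6 (0.0462%), 43 in all (0.331%). The other 53 interferon genes were not called in the trend. The median change from empty vector to LSD1+8a was 0.24 on the log2 scale in these 80 genes, against 0.0009 over all genes tested. No member had a falling trend in edgeR, DESeq2 or limma-voom, while at an unadjusted p under 0.05 the numbers were 47 higher and 0 lower of 80, and 451 higher and 384 lower of all 13000 genes. The first step was called higher for 5 genes (0.0385%), of which 3 were interferon genes, and the last step for 25 genes (0.192%), of which 23 were. Median changes of the 80 genes were 0.05 at the first step and 0.24 at the last. All 3 LSD1 libraries lay above all 3 empty-vector libraries for 20 of the 80 (5.48% of all genes), and all 3 LSD1+8a libraries above all 3 LSD1 libraries for 47 (6.15%). That LSD1+8a libraries are high in these genes was known when the lists were drawn up, so what is added here is where LSD1 stood. On TPM with pseudocounts of 1 and 0.1 the 27 interferon trends were 15 and 14, and the 23 last steps were 13 and 12.

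**Figure D1:**
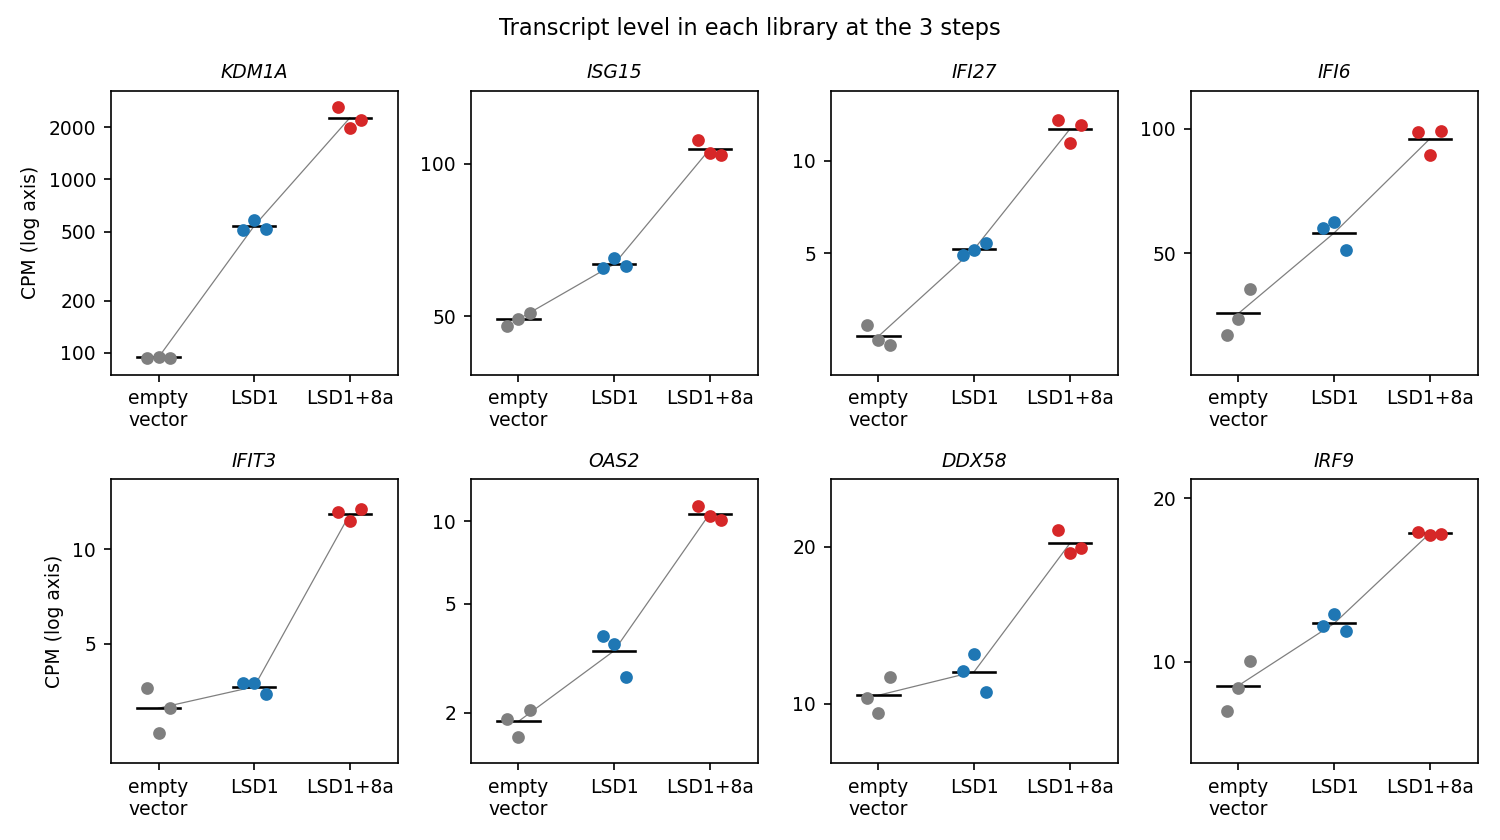
CPM on a log axis (vertical) in each of the 9 libraries at the 3 steps, for KDM1A and 7 interferon genes. Points are libraries, bars are group means and lines join the means. ISG15, IFI27, IFI6, OAS2 and IRF9 stood clear of the empty vector at LSD1, whereas IFIT3 and DDX58 overlapped with it there and stood apart at LSD1+8a.

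A gradual rise, with the trend and both steps called upward, was found for 3 genes, ISG15, IFI27 and IFI6. A gradual fall was found for 0 genes in edgeR, DESeq2 and limma-voom. At an unadjusted p under 0.05 in both steps, 17 genes were higher and 1 was lower at each. Each of the 3 genes carries the letters of an interferon-stimulated response element, the DNA element bound by the interferon-activated complex that holds IRF9, close upstream of its start. The element was searched as GAAANNGAAA on both strands in the 250 bases before the first RefSeq start of each gene (RefSeq promoters, build GRCh38.p14), and overlapping matches were counted. The sequences of the 3 gradual genes, and of IFIT3 as the interferon gene of the last-step class, are shown 5′ to 3′ on the gene's strand with the matches in capitals.
ISG15: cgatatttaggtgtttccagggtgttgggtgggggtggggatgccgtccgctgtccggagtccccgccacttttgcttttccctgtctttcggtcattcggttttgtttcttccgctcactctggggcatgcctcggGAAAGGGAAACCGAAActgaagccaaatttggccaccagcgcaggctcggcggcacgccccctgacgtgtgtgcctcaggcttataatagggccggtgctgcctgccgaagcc
IFI27: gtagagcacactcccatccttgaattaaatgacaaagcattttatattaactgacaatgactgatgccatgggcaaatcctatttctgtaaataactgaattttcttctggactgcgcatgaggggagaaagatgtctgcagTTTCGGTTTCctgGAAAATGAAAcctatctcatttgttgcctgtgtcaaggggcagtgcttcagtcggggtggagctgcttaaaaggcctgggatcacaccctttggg
IFI6: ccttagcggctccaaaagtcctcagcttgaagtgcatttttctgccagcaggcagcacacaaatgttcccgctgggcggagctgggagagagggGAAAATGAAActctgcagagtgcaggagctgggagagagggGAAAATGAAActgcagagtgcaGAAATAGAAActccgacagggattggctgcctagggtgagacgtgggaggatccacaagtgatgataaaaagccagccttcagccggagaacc
IFIT3: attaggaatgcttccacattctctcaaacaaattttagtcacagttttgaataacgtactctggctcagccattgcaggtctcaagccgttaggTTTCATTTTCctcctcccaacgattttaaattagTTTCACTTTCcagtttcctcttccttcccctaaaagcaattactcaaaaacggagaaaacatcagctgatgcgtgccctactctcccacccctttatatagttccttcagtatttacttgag
They lie at chr1:1013247-1013496 on the plus strand (ISG15), chr14:94110486-94110735 plus (IFI27), chr1:27672193-27672442 minus (IFI6) and chr10:89327747-89327996 plus (IFIT3). ISG15, IFI27 and IFIT3 hold 2 matches each and IFI6 holds 3. Of all 27305 promoters of this length in the table, 3.07% hold the element, as do 2.22% of the 9714 promoters matched to the genes tested (74.7% of these genes). Of the 80 measured interferon genes 61 had an entry, and 27 of the 61 (44.3%) held it. Of the 27 with a rising trend 22 had an entry, and 16 of the 22 (72.7%) held it. With 76.2% of the 80 genes matched, the share is void as a value for the whole list, and the 2 shares were not compared. The lists were drawn up of interferon-stimulated genes, and the element is bound by the interferon-activated complex. A share above that of all promoters therefore follows from the lists and is not a result of these data. A match describes letters only, and the element did not separate the gradual genes from IFIT3.

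ISG15, a ubiquitin-like protein that is joined to other proteins during an antiviral response, stood at 48.0, 49.5 and 50.7 CPM with the empty vector. It stood at 62.2, 65.1 and 62.9 CPM with LSD1 and at 112, 105 and 104 CPM with LSD1+8a. The 3 groups did not overlap. The first step was 0.36 on the log2 scale (SE 0.05, adjusted p = 0.000319 in edgeR) and the last step 0.75 (SE 0.05, adjusted p = 6.82e-13). The last step was larger by 0.40, a difference that missed the threshold (adjusted p = 0.0643). The calls of ISG15 in the trend and both steps held in every alternative run, including each left-out library.

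IFI27, a small hydrophobic membrane protein, had the largest first step of the 3. It stood at 2.92, 2.61 and 2.51 CPM with the empty vector, 4.94, 5.11 and 5.40 with LSD1 and 13.6, 11.4 and 13.0 with LSD1+8a. Again no library of a group overlapped with another group. Its steps were 0.94 (SE 0.16, adjusted p = 0.00387 in edgeR) and 1.30 (SE 0.13, adjusted p = 6.75e-08), and the difference of 0.36 was not called (adjusted p = 0.927). Its 3 calls also held in every alternative.

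IFI6, a membrane protein that limits flavivirus replication, stood at 31.8, 34.6 and 40.9 CPM with the empty vector, 57.6, 59.5 and 50.8 with LSD1 and 98.0, 86.4 and 98.9 with LSD1+8a. Its steps were the most even of the 3, 0.64 (SE 0.10, adjusted p = 0.0344 in edgeR) and 0.75 (SE 0.08, adjusted p = 0.001), although its libraries spread more within a group. The first-step call was lost in 6 of 20 alternatives. These were the replicate block, removal of mitochondrial genes, and the fits without empty-vector replicate 2, LSD1 replicate 1, LSD1 replicate 2 or LSD1+8a replicate 1, with a largest adjusted p of 0.354.

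**Figure D2:**
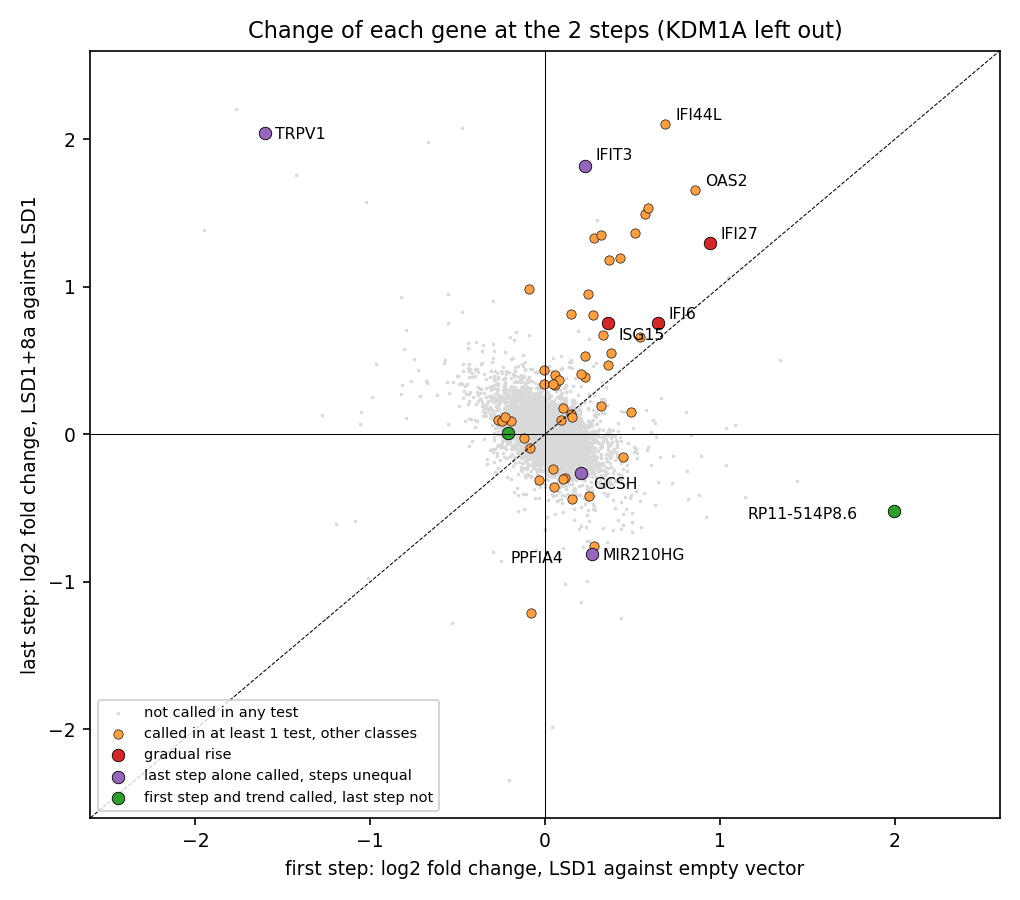
The log2 fold change of each of 13000 genes at the first step (horizontal, LSD1 against empty vector) and the last step (vertical, LSD1+8a against LSD1), with KDM1A left out. The dashed line marks equal steps, and most called rises lie above it, with a larger last step than first step in 32 of the 37 trend rises.

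A class of 4 genes was called at the last step alone: the last step was called, the first was not, and the 2 steps differed by their own test (6 genes differed in all, 0.0462%). IFIT3 and TRPV1 rose and MIR210HG and GCSH fell. A first step that was not called does not show that a gene stood still there: in TRPV1, MIR210HG and GCSH the first step ran against the last, and the LSD1 libraries did not overlap with the empty vector. Without the demand on the step difference the class held 22 rises and 11 falls. For most of those 33 genes the data therefore do not show that the 2 steps differed. The difference keeps the sign of each step, so steps in opposite directions add up in it. For such genes, as for GCSH with steps of 0.21 and -0.26, it does not show that the last step was larger in size.

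IFIT3, an antiviral protein of the IFIT family, stood at 3.63, 2.61 and 3.12 CPM with the empty vector, 3.75, 3.75 and 3.46 with LSD1 and 13.1, 12.3 and 13.4 with LSD1+8a. The LSD1 and empty-vector libraries overlapped and all 3 LSD1+8a libraries lay far above them. The first step was 0.23 (adjusted p = 0.923 in edgeR), the last 1.82 (SE 0.14, adjusted p = 2.79e-10), and the difference 1.59 (SE 0.28, adjusted p = 0.0112). The last step held in every alternative. The step difference was lost on TPM with either pseudocount and without empty-vector replicate 1, LSD1 replicate 2 or LSD1 replicate 3.

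TRPV1, the capsaicin-gated cation channel, stood at 2.21, 1.86 and 3.04 CPM with the empty vector, 0.957, 0.255 and 1.10 with LSD1 and 3.29, 4.20 and 2.13 with LSD1+8a. It was low in the LSD1 group, and its outer groups overlapped. The last step was 2.04 (SE 0.35, adjusted p = 0.00443 in edgeR) after a first step of -1.60 (adjusted p = 0.179). The last-step call was lost in limma-voom, on TPM with either pseudocount and under the replicate block. Without LSD1+8a replicate 3 both steps were called and TRPV1 moved to the class that turns back.

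MIR210HG, the host transcript of the hypoxia-induced microRNA miR-210, stood at 8.601, 10.06 and 7.91 CPM with the empty vector, 10.84, 10.98 and 10.21 with LSD1 and 5.39, 6.58 and 6.31 with LSD1+8a. The LSD1+8a libraries were the lowest of all 9. The last step was -0.81 (SE 0.13, adjusted p = 0.000343 in edgeR) after a first step of 0.27 (adjusted p = 0.821), and the step difference was -1.08 (adjusted p = 0.0407). GCSH, the H protein of the glycine cleavage system, stood at 64.3, 60.6 and 63.9, then 67.7, 76.3 and 73.8, then 64.4, 61.0 and 56.1 CPM. Its outer groups overlapped, with a first step of 0.21 (adjusted p = 0.314 in edgeR) and a last step of -0.26 (adjusted p = 0.0148). The last-step call ended in DESeq2, on TPM with either pseudocount, and without LSD1 replicate 2 or 3 or LSD1+8a replicate 2 or 3 (largest adjusted p = 0.21). The step differences of TRPV1, MIR210HG and GCSH were each lost in at least 10 of 20 alternatives, and reads of GCSH may be shared with its pseudogene copies.

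Of 8 measured sensors and adaptors 2, DDX58 and IFIH1, had a rising trend and 6 were not called. DDX58, which encodes the RNA sensor RIG-I, stood at 10.3, 9.61 and 11.3 CPM with the empty vector, 11.6, 12.4 and 10.5 with LSD1 and 21.6, 19.4 and 19.8 with LSD1+8a. LSD1 overlapped with the empty vector (first step 0.15, adjusted p = 0.92 in edgeR), and the last step was 0.82 (adjusted p = 1.28e-06). IFIH1, the sensor MDA5, had a called trend (change from end to end 0.62, adjusted p = 0.000742 in edgeR). Its steps of 0.23 and 0.39 were not called, although its 3 groups did not overlap. EIF2AK2, the RNA-activated kinase PKR, was not called, with an end-to-end change of 0.17 (adjusted p = 0.369).

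Among signalling genes 2 of 16 rose in the trend. IRF9, the DNA-binding subunit of the interferon-activated complex, stood at 8.13, 8.94 and 10.04 CPM with the empty vector, 11.6, 12.3 and 11.4 with LSD1 and 17.4, 17.1 and 17.2 with LSD1+8a. All 3 groups of IRF9 were apart, yet the first step of 0.38 was not called (adjusted p = 0.346 in edgeR) while the last step of 0.55 was (adjusted p = 0.00135). The receptor chain IFNAR1 was not called in the trend (0.10, adjusted p = 0.789), nor was USP18, a brake on the receptor (0.13, adjusted p = 0.814).

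OAS enzymes make the second messenger that activates RNase L, whereas OASL is a relative that lacks this activity. Of the 5 genes of the OAS list 4 rose in the trend and at the last step. OAS2 stood at 1.89, 1.64 and 2.05 CPM with the empty vector, 3.83, 3.58 and 2.70 with LSD1 and 11.4, 10.5 and 10.1 with LSD1+8a. The groups did not overlap, but the first step of 0.85 (SE 0.20) missed the threshold (adjusted p = 0.132 in edgeR), and the last step was 1.66 (SE 0.15, adjusted p = 1.44e-08). OAS3 behaved otherwise at the first step, with overlapping groups of 80.0, 77.8 and 78.2 CPM and 87.6, 80.9 and 76.3 CPM (0.05, adjusted p = 0.931), and then rose by 0.40 to 110.0, 108 and 106 CPM (adjusted p = 8.61e-07). OASL and OAS1 had first steps of 0.51 and 0.43, neither called, and last steps of 1.36 and 1.19.

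In the list of IFIT genes and viperin 4 of 5 rose in the trend and at the last step. IFIT1 stood at 5.92, 7.23 and 8.75 CPM, then 10.3, 12.9 and 9.45, then 35.9, 27.0 and 28.7, with steps of 0.57 (adjusted p = 0.694 in edgeR) and 1.49 (adjusted p = 0.000125). IFIT2 had steps of 0.37 and 1.18, and RSAD2, which encodes viperin, 0.32 and 1.35, with the last step called in both. The step difference was called for IFIT3 alone among these 5 genes.

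By the adjusted threshold, membrane and ISG15-linked genes held all 3 of the gradual rises. Genes of other lists, such as OAS2 and IRF9, also had groups apart at each step and missed only the first-step call. The class therefore does not set these lists apart from the others. In the membrane list 5 of 10 rose in the trend, and 2 of them also at the first step. IFITM1, which blocks viral entry, stood at 3.39, 3.28 and 3.58 CPM, then 4.94, 4.77 and 5.74, then 16.6, 15.1 and 13.1, with no overlap. Its steps were 0.59 (adjusted p = 0.334 in edgeR) and 1.54 (adjusted p = 1.16e-09), and reads may be shared with other IFITM genes. BST2, which tethers budding virions, had steps of 0.28 and 1.33 and IFITM3 of 0.08 and 0.37, with the last step called in both. In the ISG15 conjugation list 3 of 6 rose: ISG15, the ligase HERC5 (steps of 0.27 and 0.81) and HERC6 (-0.0040 and 0.44). The last-step call of HERC6 ended without LSD1 replicate 1 or 3 or LSD1+8a replicate 3, and its trend call without empty-vector replicate 1 or 3 or LSD1+8a replicate 3.

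Among the 30 other interferon-induced genes 7 rose in the trend and 4 at the last step. IFI44L, an interferon-induced gene of the IFI44 family, stood at 0.710, 0.745 and 1.37 CPM with the empty vector, 1.83, 2.13 and 0.591 with LSD1 and 6.44, 6.98 and 6.31 with LSD1+8a. LSD1 replicate 3 lay below every empty-vector library. The first step of 0.68 (SE 0.36) was not called (adjusted p = 0.896 in edgeR). The last step of 2.11 (SE 0.26) was called (adjusted p = 3.02e-05). LGALS3BP, a secreted glycoprotein, stood at 49.6, 50.8 and 53.6 CPM, then 51.0, 51.5 and 50.7, and then 63.2, 62.0 and 69.3. Its first step was -0.01 and its last 0.34 (adjusted p = 0.00025). In the class I antigen presentation list 1 of 16 genes rose in the trend, B2M, the light chain of class I molecules, with even steps of 0.09 and 0.10 of which neither was called (end to end 0.19, adjusted p = 0.0106). B2M lost this call when empty-vector replicate 1 or 2, or LSD1+8a replicate 2, was left out. At an unadjusted p under 0.05, 7 of the 16 class I genes were higher and 0 lower at the last step (368 and 409 of all 13000 genes). All 3 LSD1+8a libraries lay above all 3 LSD1 libraries for 8 of the 16 (6.15% of all genes).

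The share of the CPM rise that had been reached at LSD1 placed the middle group on 1 scale for all rises. Over the 37 rises its median was 17.1%, with a range of -7.20 to 166%. Over the 27 interferon genes and B2M the median was 16.3%, from -2.11 to 46.6%, against 20.5% for KDM1A itself. On the log2 scale the median share was 27.8% for all 37 and 27.6% for these 28, against 54.9% for KDM1A. The shares of genes share the same libraries and are given as a description. The summed level of the 80 interferon genes was 3089, 3101 and 3115 CPM with the empty vector, 3222, 3231 and 3160 with LSD1 and 3706, 3558 and 3619 with LSD1+8a. No library of a group overlapped with another group in this sum.

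**Figure D3:**
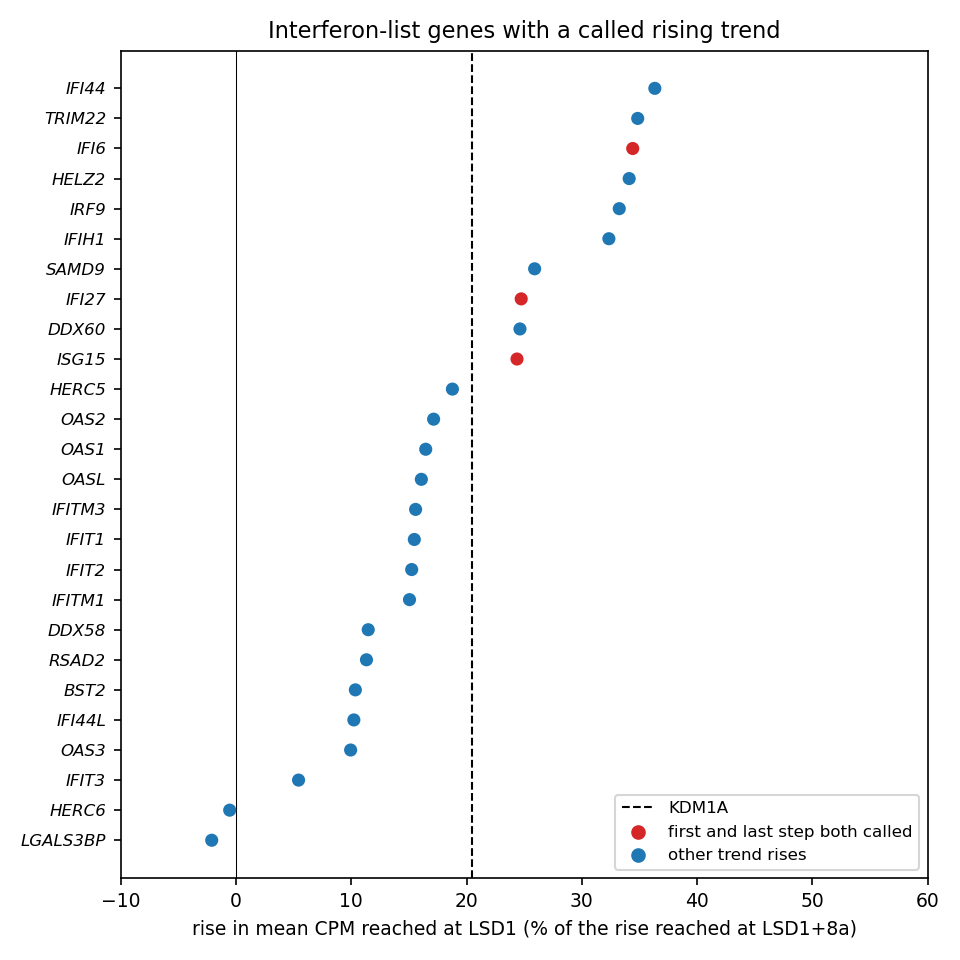
Rise in mean CPM reached at LSD1, as a percent of the rise reached at LSD1+8a (horizontal), for 26 of the 27 interferon-list genes with a called rising trend (vertical). The dashed line marks KDM1A at 20.5%, and red points are the 3 genes with both steps called.

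The 9 trend rises outside these lists were named after their values were seen. RARRES3, a retinoid-induced phospholipase, had steps of -0.09 and 0.99, the last called (adjusted p = 0.000886 in edgeR). CLU, the secreted chaperone clusterin, rose end to end by 1.201 (adjusted p = 0.0407) with no step called, and LSD1+8a replicate 1 stood well above the others at 36.6 CPM, against 25.4 and 24.2 CPM. TRANK1, TRGC1, the chromatin remodeller SMARCAD1, CYP4F30P and the clones AC008738.1 and AC018865.8 also had a called trend and no called step. Apart from AC008738.1, each of these and CLU lost the call without at least 1 library, CLU without any 1 of the empty-vector or LSD1 libraries. The last of the 9, the clone RP11-514P8.6, is described with the genes of the first step.

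Of the 6 falling trends none belonged to a gradual class. MAP1B, a neuronal microtubule-associated protein, stood at 209.7, 208 and 208 CPM with the empty vector, 190.5, 194 and 191 with LSD1 and 194, 184 and 187 with LSD1+8a. Its steps were -0.12 and -0.02, neither called, with an end-to-end change of -0.15 (adjusted p = 0.0405 in edgeR), a call lost in 13 of 23 alternatives, 7 of them a left-out library. HNRNPUL2-BSCL2, a readthrough transcript whose reads overlap its neighbours, had even steps of -0.09 and -0.09 (end to end -0.18, adjusted p = 0.0212), and lost the call without empty-vector replicate 2 or 3 or LSD1+8a replicate 2 or 3. The others were KDM3A and ZNF395, which belong to the hypoxia list, MT-CO1, and the clone RP11-575L7.8, named after its value was seen, with a last step of -1.21 (adjusted p = 0.024) that was lost without any 1 of the LSD1 or LSD1+8a libraries.

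Of 45 measured hypoxia and glycolysis genes 6 fell at the last step and 2 of these also along the trend. Over all genes the last step was called lower for 11 (0.0846%), and 39 members of the list were not called. The median last step of the list was -0.14, against -0.0006 over all genes. Its median first step was 0.05, against 0.0018. No member was called at the first step, and none was called higher at the last step, in edgeR, DESeq2 or limma-voom. At an unadjusted p under 0.05, 6 of 45 were higher and 0 lower at the first step (396 and 341 of all 13000 genes), and 20 were lower and 1 higher at the last (409 and 368). In the trend 11 were lower and 0 higher (384 and 451). All 3 LSD1+8a libraries lay below all 3 LSD1 libraries for 16 of the 45 (5.52% of all genes). First-step estimates were above 0 for 37 of 45 genes (6642 of all 13000) and last-step estimates for 3 (6452). A shared sign was not particular to this list. Last-step estimates were above 0 for 9 of 78 cytosolic ribosomal proteins and 17 of 76 nuclear genes of oxidative phosphorylation, with medians of -0.03 and -0.02. In the interferon lists they were above 0 for 74 of 80 genes. The list was chosen with earlier results of these data known, so these values describe it and are not independent support. Because both steps use the LSD1 libraries, a high LSD1 group alone would move them in opposite directions, and end to end the median change of the list was -0.06, with 2 members called lower.

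**Figure D4:**
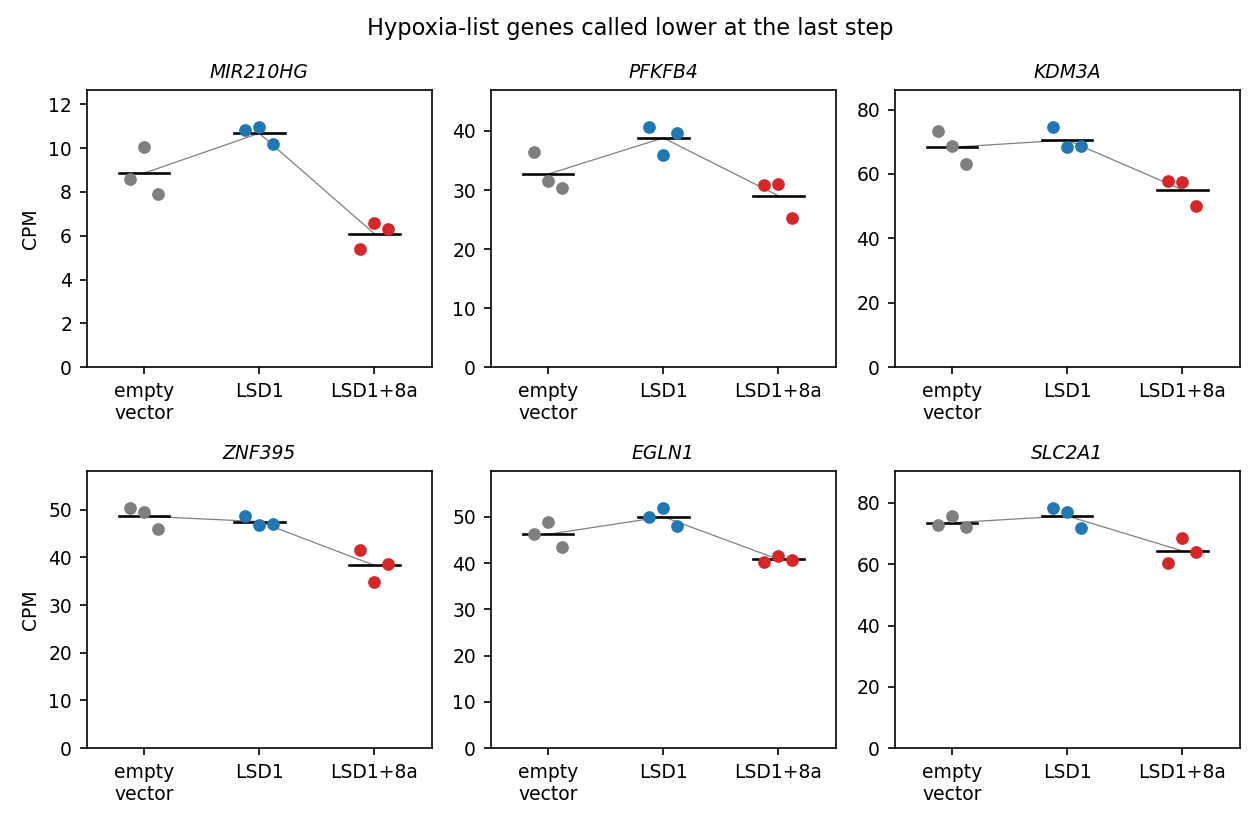
CPM (vertical, linear from 0) in each library at the 3 steps for the 6 hypoxia-list genes called lower at the last step. Points are libraries, bars are means and lines join the means. In every panel the 3 LSD1+8a libraries lie below all 3 LSD1 libraries.

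KDM3A, a histone H3 lysine 9 demethylase induced by hypoxia, stood at 73.2, 68.5 and 63.1 CPM with the empty vector, 74.7, 68.4 and 68.6 with LSD1 and 57.8, 57.6 and 49.9 with LSD1+8a. LSD1 and the empty vector overlapped and LSD1+8a was below both. Its first step was 0.05 (adjusted p = 0.956 in edgeR). Its last step was -0.36 (SE 0.06, adjusted p = 0.00225 in edgeR) and its trend was called too (end to end -0.31, adjusted p = 0.0114), although not without empty-vector replicate 1 or 2 or LSD1+8a replicate 3. ZNF395, a hypoxia-induced transcription factor, also had its LSD1+8a libraries below those of both other groups, with steps of -0.03 and -0.31 (adjusted p = 0.00976 for the last). EGLN1, the oxygen-sensing prolyl hydroxylase PHD2, had steps of 0.11 and -0.29 (adjusted p = 0.00626 for the last). The remaining called members, named after their values were seen, were PFKFB4, a regulator of glycolytic flux (0.25 and -0.42), and SLC2A1, the glucose transporter GLUT1 (0.04 and -0.24), beside MIR210HG. By single libraries, the last-step call ended for EGLN1 without LSD1 replicate 2, for ZNF395 without LSD1 replicate 1 or LSD1+8a replicate 2, and for PFKFB4 without LSD1 replicate 1 or 3 or LSD1+8a replicate 3. For SLC2A1 it ended without LSD1 replicate 1 or 2 or LSD1+8a replicate 1 or 3. The count of 6 fell to 3 without LSD1 replicate 1. On TPM it was 1 with either pseudocount.

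The last step was called lower without a trend call for 8 genes, with end-to-end changes from -0.54 (MIR210HG) to -0.05 (GCSH). Outside the hypoxia list these were GCSH and, named after their values were seen, PPFIA4, PPP1R3B and C4orf48. The calls of PPP1R3B and C4orf48 were lost in 6 and 12 of 20 alternatives, left-out libraries among them. PPFIA4, a liprin of the synaptic active zone, stood at 16.5, 17.7 and 12.6 CPM, then 20.9, 17.6 and 18.2, then 9.88, 13.1 and 10.7. Its last step was -0.76 (SE 0.12, adjusted p = 0.002 in edgeR) and its groups at the ends overlapped.

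The first step was called for 10 genes (0.0769%), 5 in each direction (0.0385% each). The 5 that were lower were all transcripts of the mitochondrial genome, and 10 of the 15 mitochondrial transcripts were not called. Their median first step was -0.17, and 12 of 15 had all LSD1 libraries below all empty-vector libraries (6.22% of all genes did). This list too was chosen with earlier results of these data known, so the values are a description. Nuclear copies of mitochondrial DNA may share these reads. The mitochondrial share of counts was 7.25, 7.21 and 7.40% with the empty vector, 6.63, 6.67 and 6.38% with LSD1 and 7.12, 6.64 and 6.71% with LSD1+8a. LSD1+8a replicate 1 thus stood nearer to the empty vector than to the other LSD1+8a libraries.

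MT-CO1, a catalytic subunit of cytochrome c oxidase, was the only mitochondrial gene called in the trend and at the first step but not at the last. It stood at 14189, 13533 and 13257 CPM with the empty vector, 11978, 12219 and 11118 with LSD1 and 12039, 11702 and 11716 with LSD1+8a. Its steps were -0.21 (SE 0.04, adjusted p = 0.00355 in edgeR) and 0.01 (adjusted p = 0.999), a difference that was not called (adjusted p = 0.417), and its trend was called (adjusted p = 0.00129). The trend call ended without empty-vector replicate 1, and the first-step call without that library or LSD1 replicate 3. MT-ND1, a complex I subunit, stood at 4246, 4542 and 4430.3 CPM, then 3851, 3749 and 3654, then 4241, 3959.7 and 4026. Its first step was -0.23 (adjusted p = 0.000594), its last 0.12 (adjusted p = 0.276), and the steps differed (adjusted p = 0.0108), although not without LSD1 replicate 2 or 3. MT-ND6, MT-ND2 and MT-ND5, of which the last was named after its value was seen, had first steps of -0.27, -0.19 and -0.25. The call of MT-ND2 ended without empty-vector replicate 3 or LSD1 replicate 3, and that of MT-ND5 without any 1 empty-vector library or LSD1 replicate 1 or 3.

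**Figure D5:**
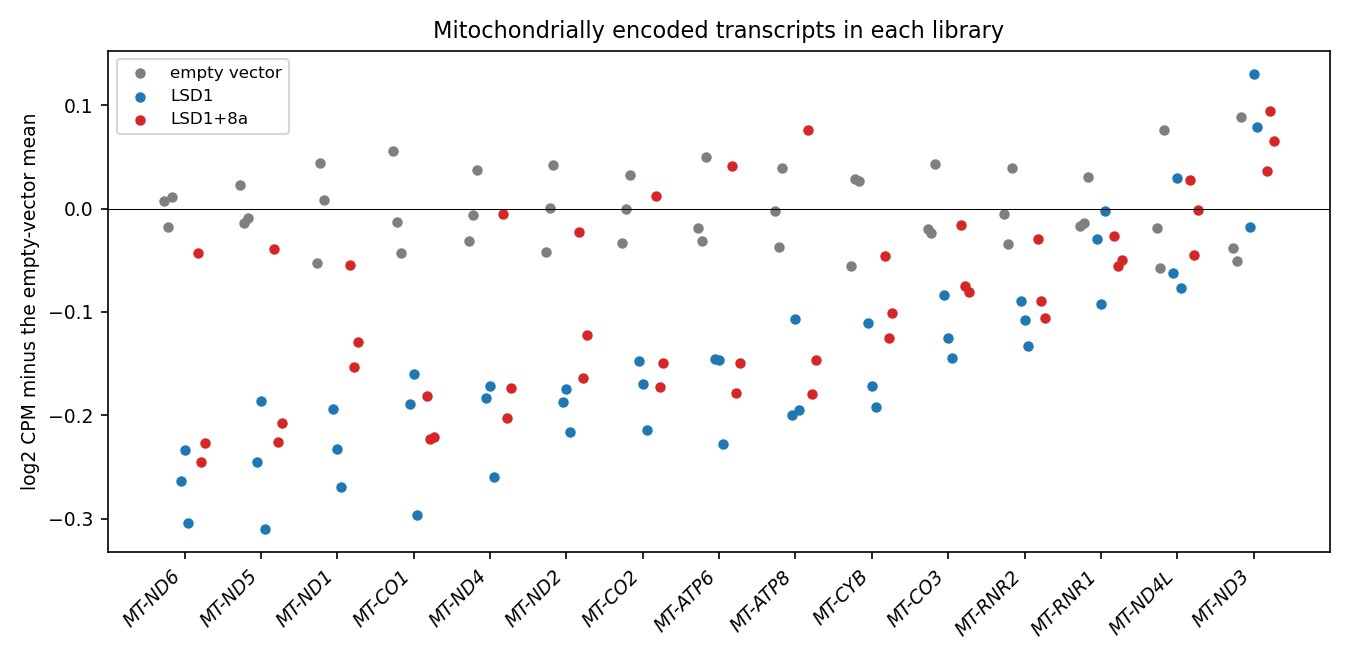
Log2 CPM minus the empty-vector mean (vertical) in each library for the 15 transcripts of the mitochondrial genome (horizontal). For most genes the LSD1 points lie below the empty-vector points, and for many genes 1 LSD1+8a library, replicate 1, lies above the other 2.

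At the last step none of the 15 mitochondrial transcripts was called in edgeR, DESeq2 or limma-voom, and 4 of 15 were higher at an unadjusted p under 0.05 (368 of all 13000 genes). Without LSD1+8a replicate 1 the number lower at the first step was 10, and the class called in the trend and at the first step alone held 10 genes, 9 of them mitochondrial. The number lower at the first step was 3 without empty-vector replicate 1 or 3, 2 without LSD1 replicate 3, and 8 without LSD1+8a replicate 2.

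Besides the 3 gradual interferon genes, 2 genes were called higher at the first step, both named after their values were seen. RP11-514P8.6, a clone-named transcript, stood at 1.10, 1.42 and 1.14 CPM with the empty vector, 4.54, 4.26 and 5.91 with LSD1 and 2.47, 3.73 and 4.10 with LSD1+8a. It was highest at LSD1, with a first step of 1.99 (SE 0.23, adjusted p = 1.53e-05 in edgeR), a last step of -0.52 that was not called (adjusted p = 0.633) and a called trend (adjusted p = 0.000609). All 3 LSD1+8a libraries lay below all 3 LSD1 libraries. The steps of RP11-514P8.6 differed by -2.51 (adjusted p = 0.0012 in edgeR). That call was lost on TPM with either pseudocount and without LSD1 replicate 3. BCYRN1, a small cytoplasmic RNA of the Alu family, stood at 21.3, 19.4 and 18.8, then 26.8, 25.8 and 28.3, then 22.9, 25.8 and 24.1 CPM. Its first step was 0.44 (adjusted p = 0.00355), a call lost without LSD1 replicate 3, and its reads may come from related repeats.

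No gene turned back by the rule that both steps be called in opposite directions in edgeR, nor in limma-voom, whereas DESeq2 called 1, the clone CTD-2328D6.1, named after its value was seen. At an unadjusted p under 0.05 in both steps, 81 genes peaked and 56 had a trough at LSD1. By library values alone, LSD1 lay above both other groups with no overlap for 181 genes and below both for 204, whereas the 3 groups were ordered without overlap upward for 29 genes and downward for 10. Peaks and troughs are favoured by construction, since the steps share the LSD1 libraries with opposite sign. CTD-2328D6.1 stood at 58.2, 55.1 and 55.8 CPM, then 63.5, 83.2 and 72.4, then 53.2, 57.4 and 64.4, with overlap between LSD1 and LSD1+8a.

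Measured genes of lists tied to LSD1 and to prostate or neuroendocrine identity had no called step. The lists were CoREST (17 of 19 genes measured), NuRD (11 of 12), REST targets (22 of 47) and neuroendocrine markers (9 of 29). Beside them stood androgen-regulated genes (38 of 45), p53 targets (34 of 37) and luminal markers (16 of 16). In each list edgeR, DESeq2 and limma-voom called 0 in the trend or either step. Members that were not measured could not be tested. At an unadjusted p under 0.05 in any of these tests the numbers were 1, 2, 7, 0, 8, 4 and 5, against 1794 of all 13000 genes. Examples from end to end were ZMYM2, a CoREST partner (-0.03, adjusted p = 0.95 in edgeR), CHD4, the NuRD remodeller (-0.0048, adjusted p = 0.994), and the vesicle protein gene SYT4 (-0.07, adjusted p = 0.903). Among histone demethylases other than KDM1A, KDM3A alone of 20 was called. KLK3, which encodes prostate-specific antigen, stood at 3087, 3188 and 3093 CPM, then 3365, 3215 and 3159, then 2959.5, 3118 and 3024, with an end-to-end change of -0.04 (adjusted p = 0.913). A p above the threshold does not show that these genes were unchanged.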

How the data were processed

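Per the file headers, 1 deposited table holds raw counts and 1 holds TPM, each per gene and library. In the submitters' processing notes hg19, RSEM 1.2.31 and STAR 2.5.3a appear without a role, and the counter is not given in the sources used here. The comparison table was not used.

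Counts of 9 libraries were scaled with TMM and passed through filterByExpr, which removed no gene, and group means were fitted in R 4.3.3 by the robust quasi-likelihood method of edgeR 4.0.16, without a replicate block. Every SE belongs to a log2 fold change. Replicates differed beyond counting noise in all 9 pairs (chi-square over its degrees of freedom 1.55 to 2.88, over genes holding 50 or more counts). The procedure was tested on simulated data. The planted steps were larger than many of the steps called here, so that test does not show how smaller steps are recovered.

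The order, gene lists and tests were chosen with earlier results of these data known. Named genes had an average log2 CPM of at least 0 and no clone name. They were up to 10 of the largest called rises and falls in the trend with end groups apart (10 rises and 5 falls were taken), members of each class, and up to 4 genes per list described with the smallest p for any difference. A few others are marked as named after their values were seen. Symbols were matched to RefSeq promoters by current or older symbol. The promoters, the motif, the counts for lists in the alternatives and the scores at KDM1A CPM were chosen after the data were seen.

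Alternatives were RLE and upper-quartile factors, removal of KDM1A or of mitochondrial genes, no filter, a stricter filter, DESeq2 1.42.0, limma-voom (limma 3.58.1), log2 TPM (pseudocount 1 or 0.1) under limma-trend, a replicate block, a numeric score, scores at KDM1A log2 CPM or CPM, and each library left out. Some items are not reported here by name.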

Additional observations from a re-analysis of the deposited data

How the results depend on the processing

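RLE factors, upper-quartile factors, removal of KDM1A and a stricter filter left every count within 1.5 times its value. The run with no filter repeated the main run, since filterByExpr removed no gene. It is counted among the alternatives but adds no check of its own. No called gene changed direction in any alternative (1719 of the gene-level checks kept the call, 303 lost it). Calls held in every alternative for 13 of 43 trend genes, 4 of 10 first-step genes, 14 of 36 last-step genes and 0 of 6 genes with unequal steps, so the last of these rests on particular libraries and settings. The cause of each of the following shifts was not tested.

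limma-trend on TPM with pseudocounts of 1 and 0.1 gave 19 and 18 rising trends, 2 and 1 falling trends, 6 and 6 first steps, 17 and 16 last steps, 0 and 0 unequal steps, 0 and 0 genes of the last step alone and 1 and 1 of the first step alone. For the lists it gave 15 and 14 interferon trends, 13 and 12 interferon last steps, 1 and 1 hypoxia falls and 1 and 1 mitochondrial falls. DESeq2 gave 16 first steps, 1 gene that turned back and 8 mitochondrial falls. limma-voom gave 2 genes of the last step alone. Removal of mitochondrial genes, which takes away genes that could be called, gave 4 first steps and 1 gene of the first step alone. A numeric score gave 3 falling trends.

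Leaving out 1 library in turn gave 30 to 41 rising and 3 to 20 falling trends, 7 to 16 first steps, 30 to 45 last steps and 0 to 16 unequal steps. Classes ranged from 2 to 3 (gradual), 0 to 6 (last step alone), 1 to 10 (first step alone) and 0 to 3 (turning back). The interferon lists ranged from 25 to 27 in the trend and 21 to 23 at the last step, the hypoxia list from 3 to 7 and the mitochondrial list from 2 to 10. Falling trends numbered 3 without empty-vector replicate 1 or 2, 12 without empty-vector replicate 3 and 20 without LSD1+8a replicate 1. Unequal steps numbered 3 without empty-vector replicate 3, 1 and 0 without LSD1 replicates 2 and 3, and 16 without LSD1+8a replicate 2, which also gave 16 first steps and 2 genes that turned back. Genes of the last step alone numbered 2 without empty-vector replicate 1 or LSD1+8a replicate 1, 1 without empty-vector replicate 3 or LSD1+8a replicate 3, and 0 without LSD1 replicate 2 or 3. Genes of the first step alone numbered 1 and 4 without empty-vector replicates 1 and 3. Genes that turned back numbered 3 without LSD1 replicate 1 and 1 without LSD1+8a replicate 3.

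Over all 9 pairs of libraries with the same replicate number, deviations had a mean correlation of -0.01 (from -0.16 to 0.14). This mean joins opposite signs. Between empty vector and LSD1+8a the correlations were 0.14, 0.08 and 0.10 for replicates 1, 2 and 3. Between empty vector and LSD1 they were -0.16, -0.09 and -0.09, and between LSD1 and LSD1+8a -0.09, 0.04 and -0.04. The 18 pairs of unlike replicate number had a mean of 0.006 (from -0.11 to 0.09). These values therefore do not settle whether the numbers pair libraries. A replicate block gave 38 rising and 8 falling trends, 9 first steps, 35 last steps, 8 unequal steps, 2 gradual genes, 5 of the last step alone, 3 of the first step alone and 0 that turned back.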

Other observations

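Genes of growth and stress programs were measured along the same order. Of 40 G2/M genes, 40 S-phase genes, 78 cytosolic ribosomal proteins, 76 nuclear genes of oxidative phosphorylation, 40 genes of the unfolded protein and ATF4 response and 33 genes of cholesterol and fatty acid synthesis, edgeR, DESeq2 and limma-voom each called 0 in the trend or either step. At an unadjusted p under 0.05 in any of these tests the numbers were 8, 5, 16, 9, 4 and 3, against 1794 of all 13000 genes. In the trend alone 5, 2, 12, 3, 3 and 1 were lower and 0, 1, 0, 0, 0 and 0 higher. Over all genes 384 were lower and 451 higher. Of 28 heat-shock and NRF2 genes, DESeq2 called 1 and the other tools 0, with 6 at an unadjusted p under 0.05. Of 17 measured NF-kB targets (29 listed) and 21 measured immediate early genes (30 listed) each tool called 0, with 4 and 2 at an unadjusted p under 0.05. Median end-to-end changes of these lists lay between -0.04 (cytosolic ribosomal proteins) and 0.0067 (NF-kB targets) on the log2 scale, and 18 of the 37 trend rises over all genes exceeded 2-fold.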
